A study of Rattus norvegicus with 16 samples.

Results

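Complement and coagulation are plasma protein cascades in which one serine protease cuts and so activates the next. The classical arm of complement starts when C1q, carrying the proteases C1r and C1s, binds antibody or altered surfaces, and the lectin arm when mannose-binding lectins with their own proteases bind sugars. Both lead to C3, the alternative arm amplifies C3 cleavage, and C5 to C9 build the membrane attack complex. Coagulation ends in thrombin and fibrin, is held back by protein C, protein S and antithrombin, and is undone by plasmin. Hepatocytes make most of these plasma proteins, whereas C1q comes mainly from macrophages, in the liver from Kupffer cells.

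A list of 41 genes of these cascades, named from the liver's plasma proteins and grouped by function, was followed in 16 rat liver samples on Affymetrix RG-230 PM arrays. The list was chosen with earlier results of these data known. Counts of its genes beside the shares of all genes are therefore a description and no independent test of the cascades. A gene counted as measured where the platform annotation gave a probe set its symbol and no other, which held for 36 of the 41, and the probe set with the highest mean over the 16 arrays stood for the gene. All 36 passed the filter on low signals, against 11433 genes tested in all. Of the remaining 5, C4a and Kng1 were named only by probe sets shared with near-identical relatives, and F7, F11 and F13b had no probe set of their own. C4a, the next substrate of C1s, and Kng1, the kininogen of the contact system, are therefore not described, nor is factor VII, which starts the extrinsic pathway.

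The livers came from male F344 rats, an inbred strain, with a labelled age of 4 weeks and 3 weeks of rearing. There were 4 groups of 4 liver samples, each taken here as the liver of 1 rat. Hydrogen-treated CDAA rats ate the CDAA diet (choline-deficient, L-amino acid-defined), known to make rat livers fatty, drank hydrogen-rich water with 0.7 mM dissolved hydrogen and breathed air with 2% hydrogen, whereas control CDAA rats ate that diet with dehydrogenized water and plain air. Hydrogen-treated normal-diet rats ate CE-2 basal chow with the same hydrogen water and air, and control normal-diet rats ate the chow with dehydrogenized water and air. The water of all 4 groups came from the electrolysis of a 0.44 mM Na2SO4 solution, with the hydrogen stirred out in open air for the controls. The CDAA diet is a purified diet set here against chow, so the diet comparison covers more than choline. Whole pieces of liver were used, and in such bulk RNA fewer cells of a type and less RNA per cell cannot be told apart.

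Signals are normalised log2 values between 2.42 and 13.73, so a step of 1 is a doubling, and array medians were 4.33 to 4.38. The precision is limited by the 4 arrays per group, and the labels say of the replicates only that they are separate samples, so the p-values measure the spread between these samples. The first principal component of all tested probe sets held 66.0% of the variance and separated the diets. On it array 4 of the control normal-diet rats lay at -13.4, whereas the other 3 arrays of that group lay at -35.1 to -32.3. That array was the lowest of its group for 22 of the 36 genes. Array 2 of the same group had the lowest C1q, macrophage and endothelial marker means of all 16 arrays. Among hydrogen-treated CDAA livers, array 3 was the lowest for 23 of the 36 genes and array 1 the highest for 20. The median SD within a group was 0.142 log2 in hydrogen-treated CDAA livers, 0.0736 in control CDAA livers, 0.0408 in hydrogen-treated normal-diet livers and 0.0599 in control normal-diet livers.

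The CDAA diet lowered most of the coagulation genes and many of the complement genes, raised Masp1, and went with higher C1qa and C1qc. In hydrogen-treated rats, 18 of the 36 genes fell and 4 rose (limma, adjusted p under 0.05 over all probe sets tested), while 17.3% of all genes tested fell and 32.1% rose. In control rats, 21 fell and 3 rose, while 13.3% of all genes fell and 27.3% rose. The median difference of the 36 genes was -0.15 log2 in hydrogen-treated rats and -0.22 in control rats, and the medians over all genes tested were 0.05 in hydrogen-treated and 0.04 in control rats. All 18 genes that fell under hydrogen were among the 21 of the control rats, and the 3 others were C1r, C1s and C4bpb. Masp1, C1qa and C1qc rose in both, and Cfb passed the test in hydrogen-treated rats. CDAA and normal-diet livers did not overlap for 21 genes in hydrogen-treated rats, against 43.8% of all genes, and for 23 in control rats, against 38%. The background split depends on the scaling: in hydrogen-treated rats 64.9% of the called genes were higher in CDAA livers with the deposited values, 53.3% after a further quantile normalization and 43.2% with each array centred on its median. In control rats the shares were 67.2% with the deposited values, 57.9% after the quantile normalization and 51.2% after centring.

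**Figure D1:**
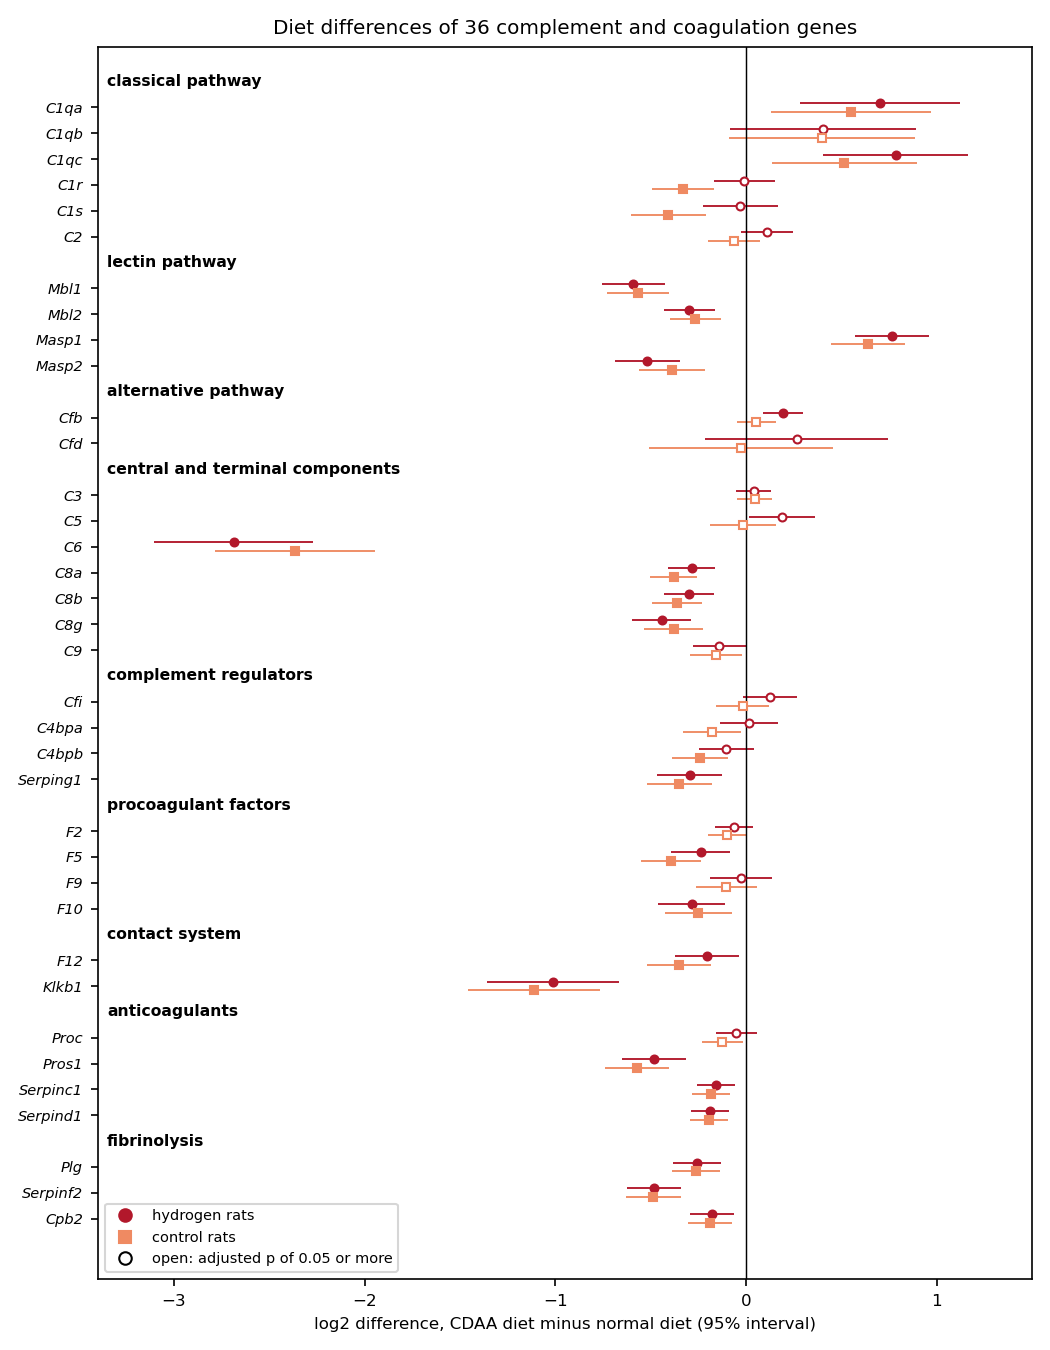
Difference between CDAA and normal-diet livers (log2, horizontal axis) for the 36 measured genes, grouped by role, with dark red circles for hydrogen-treated rats above orange squares for control rats. Bars are 95% intervals of the limma fit and open symbols mark an adjusted p of 0.05 or more; C6 at -2.69 and -2.37 and Klkb1 at -1.01 and -1.11 lie farthest to the left.

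Most of the falls were small. Apart from C6 and Klkb1, the genes that fell in control rats did so by 1.14- to 1.49-fold at the probe set that stood for each gene. The other Mbl2 probe set fell by more, 1.79-fold in control rats. In the coagulation arm 10 of the 13 measured genes fell and 0 rose in either comparison, with medians of -0.20 log2 in hydrogen-treated rats and -0.25 in control rats. Of the 20 measured complement genes other than C1q, 8 fell and 2 rose in hydrogen-treated rats (median -0.07) and 11 fell and 1 rose in control rats (median -0.25). The C1q chains had medians of 0.70 in hydrogen-treated rats and 0.52 in control rats. Whether these arms differ from each other was not tested.

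C6, the component that joins C5b to start the membrane attack complex, fell most. It read 7.70, 8.13, 7.39 and 7.87 log2 in hydrogen-treated CDAA livers and 7.95, 7.58, 7.70 and 8.46 in control CDAA livers. It read 10.29, 10.53, 10.50 and 10.52 in hydrogen-treated normal-diet livers and 10.26, 10.38, 10.70 and 9.81 in control normal-diet livers. Every CDAA liver lay more than 1 log2 below every normal-diet liver. The difference was -2.69 ± 0.197 log2 in hydrogen-treated rats (SE, 6.44-fold lower, adjusted p = 2.47e-07) and -2.37 ± 0.197 in control rats (5.15-fold lower, adjusted p = 2.18e-06).

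Klkb1, plasma prekallikrein of the contact system, had the next largest fall. It read 9.86, 9.76, 9.08 and 9.82 log2 in hydrogen-treated CDAA livers and 9.25, 9.88, 9.35 and 9.83 in control CDAA livers. Its values were 10.75, 10.70, 10.63 and 10.49 in hydrogen-treated normal-diet livers and 10.60, 10.78, 10.80 and 10.58 in control normal-diet livers. The CDAA livers varied more among themselves, yet none reached a normal-diet liver. The difference was -1.01 ± 0.163 log2 in hydrogen-treated rats (2.02-fold lower, adjusted p = 1.4e-04) and -1.11 ± 0.163 in control rats (2.16-fold lower, adjusted p = 9.63e-05).

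The promoters of these genes are shown with those of C8a and C8b, chain genes of the same attack complex that also fell, because the 4 are among the genes that carry the diet difference and hold a motif searched. Each run is 300 bases, 250 before the annotated gene start and 50 after it, on the gene's strand, from RefSeq on build GRCr8. They lie at chr2:55573383-55573682 on the plus strand (C6), chr16:53690976-53691275 on the plus strand (Klkb1), chr5:124866582-124866881 on the minus strand (C8a) and chr5:124763864-124764163 on the plus strand (C8b). Capitals mark matches on either strand to TTGCNNAA, a C/EBP-like motif, or to GTTAAT, a core of the HNF1 motif.
C6: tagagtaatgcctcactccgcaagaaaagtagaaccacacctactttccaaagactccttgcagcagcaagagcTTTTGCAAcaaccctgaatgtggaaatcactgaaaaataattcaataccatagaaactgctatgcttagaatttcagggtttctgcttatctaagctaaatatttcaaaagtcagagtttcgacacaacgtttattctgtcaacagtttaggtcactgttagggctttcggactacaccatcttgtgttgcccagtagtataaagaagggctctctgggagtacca
Klkb1: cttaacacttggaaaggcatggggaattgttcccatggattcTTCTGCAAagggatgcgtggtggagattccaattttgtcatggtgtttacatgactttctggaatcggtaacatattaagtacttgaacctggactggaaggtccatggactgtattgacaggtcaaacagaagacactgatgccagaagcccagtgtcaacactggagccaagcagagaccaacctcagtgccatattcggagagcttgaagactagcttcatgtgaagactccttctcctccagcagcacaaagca
C8a: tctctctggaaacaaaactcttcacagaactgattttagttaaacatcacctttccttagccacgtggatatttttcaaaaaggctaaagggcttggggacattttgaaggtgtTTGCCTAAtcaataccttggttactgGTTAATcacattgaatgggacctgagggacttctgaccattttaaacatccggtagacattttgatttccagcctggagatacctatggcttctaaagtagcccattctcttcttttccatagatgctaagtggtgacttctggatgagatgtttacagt
C8b: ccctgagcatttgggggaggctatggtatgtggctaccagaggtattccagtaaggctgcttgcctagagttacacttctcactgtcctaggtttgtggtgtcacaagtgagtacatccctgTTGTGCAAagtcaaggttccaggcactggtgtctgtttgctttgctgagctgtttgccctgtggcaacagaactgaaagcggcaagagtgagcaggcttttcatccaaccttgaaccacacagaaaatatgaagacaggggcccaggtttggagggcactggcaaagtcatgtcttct
C/EBP factors and HNF1 are families of liver transcription factors known for binding promoters of plasma protein genes. The C6 promoter holds a match to the C/EBP motif on the reverse strand at bases 75 to 82 from the left end, Klkb1 at 43 to 50 and C8b at 123 to 130. C8a holds one on the forward strand at 115 to 122 and the HNF1 motif at 141 to 146, and no matches overlap. Promoters were in the table for 26 of the 36 genes, 24 of them other than C1q. TTGCNNAA was in 9 of the 24 (37.5%) and in 10.6% of all 33469 promoters of this length. GTTAAT was in 7 of the 24 (29.2%) and in 7.45% of all. CAAAGTCC, an HNF4-like core, was in 0 of the 24 and in 1.4% of all promoters. GAGGAAGT, a PU.1-like core, was in 1 of the 24, C4bpb, and in 2.42% of all. Of the 9 genes with TTGCNNAA (C1r, C3, C4bpa, C6, C8a, C8b, F9, Klkb1 and Serpinc1), C3, C4bpa and F9 passed the diet test in neither comparison. Of the 7 with GTTAAT (C4bpa, C4bpb, C5, C8a, F2, Plg and Proc), 4 passed in neither, namely C4bpa, C5, F2 and Proc. These matches describe letters, and no binding was measured.

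In the classical arm, C1qa and C1qc passed as higher in both comparisons. The proteases C1r and C1s passed as lower in control rats and did not pass in hydrogen-treated rats. C1qa, C1qb and C1qc encode the 3 chains of the C1q recognition molecule. C1qa read 9.79, 9.69, 9.74 and 9.51 log2 in hydrogen-treated CDAA livers, against 9.03, 9.17, 8.96 and 8.76 in hydrogen-treated normal-diet livers. It read 9.39, 9.15, 9.89 and 9.56 in control CDAA livers, against 8.95, 8.23, 9.26 and 9.35 in control normal-diet livers. CDAA and normal-diet livers were apart under hydrogen and overlapped in control rats. C1qa rose by 0.70 ± 0.197 log2 in hydrogen-treated rats (1.63-fold, adjusted p = 0.00895) and by 0.55 ± 0.197 in control rats (1.46-fold, adjusted p = 0.0396).

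C1qc read 8.99, 8.94, 9.01 and 8.71 log2 in hydrogen-treated CDAA livers, against 8.23, 8.23, 8.08 and 7.97 in hydrogen-treated normal-diet livers. It read 8.65, 8.30, 9.03 and 8.74 in control CDAA livers, against 8.25, 7.51, 8.40 and 8.50 in control normal-diet livers. Here too the groups were apart under hydrogen and overlapped in control rats. C1qc rose by 0.79 ± 0.179 log2 in hydrogen-treated rats (1.72-fold, adjusted p = 0.00232) and by 0.52 ± 0.179 in control rats (1.43-fold, adjusted p = 0.0346). C1qb read 8.78, 8.72, 8.87 and 8.47 in hydrogen-treated CDAA livers, 8.46, 8.20, 8.84 and 8.54 in control CDAA livers, 8.41, 8.50, 8.27 and 8.05 in hydrogen-treated normal-diet livers and 8.22, 7.17, 8.56 and 8.49 in control normal-diet livers. Its groups overlapped on both contrasts. The C1qb difference was 0.40 log2 in each, with adjusted p = 0.166 in hydrogen-treated rats and 0.195 in control rats.

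The calls of C1qa and C1qc in control rats rest on few arrays. Without array 2 of the control normal-diet rats, the lowest of all 16 for the 3 chains, the differences were 0.31 and 0.30 log2 (adjusted p = 0.130 and 0.111). Neither passed without array 1 of that group or without array 1, 3 or 4 of the control CDAA rats, where the differences lay between 0.40 and 0.59. Neither passed in control rats with each array centred on its median either (adjusted p = 0.057 and 0.0518). In hydrogen-treated rats both passed in all 16 fits that left out 1 array, at 0.63 to 0.77 log2 for C1qa and 0.73 to 0.85 for C1qc.

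Macrophage markers went both ways with the CDAA diet, more of them up than down. Of 17 listed markers 13 were measured, and 9 rose and 1 fell with the CDAA diet in hydrogen-treated rats (median 0.74), against 7 and 3 in control rats (median 0.41). Of all genes tested, 32.1% rose and 17.3% fell in hydrogen-treated rats, and 27.3% rose and 13.3% fell in control rats. Cd68, a lysosomal glycoprotein of macrophages, rose by 1.19 log2 in hydrogen-treated rats (adjusted p = 1.68e-04) and 0.91 in control rats (adjusted p = 0.00188). Adgre1, an adhesion receptor of macrophages, rose by 1.21 in hydrogen-treated and 0.62 in control rats, and Csf1r, the receptor for macrophage colony-stimulating factor, by 0.74 in hydrogen-treated and 0.41 in control rats. Clec4f, a lectin of resident Kupffer cells, differed by -0.38 in hydrogen-treated rats (adjusted p = 0.0704) and fell in control rats (-0.61, adjusted p = 0.00892). The markers' mean level on an array ran from 7.98 to 8.37 log2 in hydrogen-treated CDAA livers, 7.88 to 8.12 in control CDAA livers, 7.36 to 7.58 in hydrogen-treated normal-diet livers and 7.21 to 7.83 in control normal-diet livers. The mean of the C1q chains ran from 8.90 to 9.21 in hydrogen-treated CDAA livers, 8.55 to 9.25 in control CDAA livers, 8.26 to 8.63 in hydrogen-treated normal-diet livers and 7.64 to 8.78 in control normal-diet livers. Array 2 of the control normal-diet rats was lowest in both, at 7.21 and 7.64, and in the mean of 6 endothelial markers, at 7.14. The part of macrophage number or RNA in the C1q difference was not tested.

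**Figure D2:**
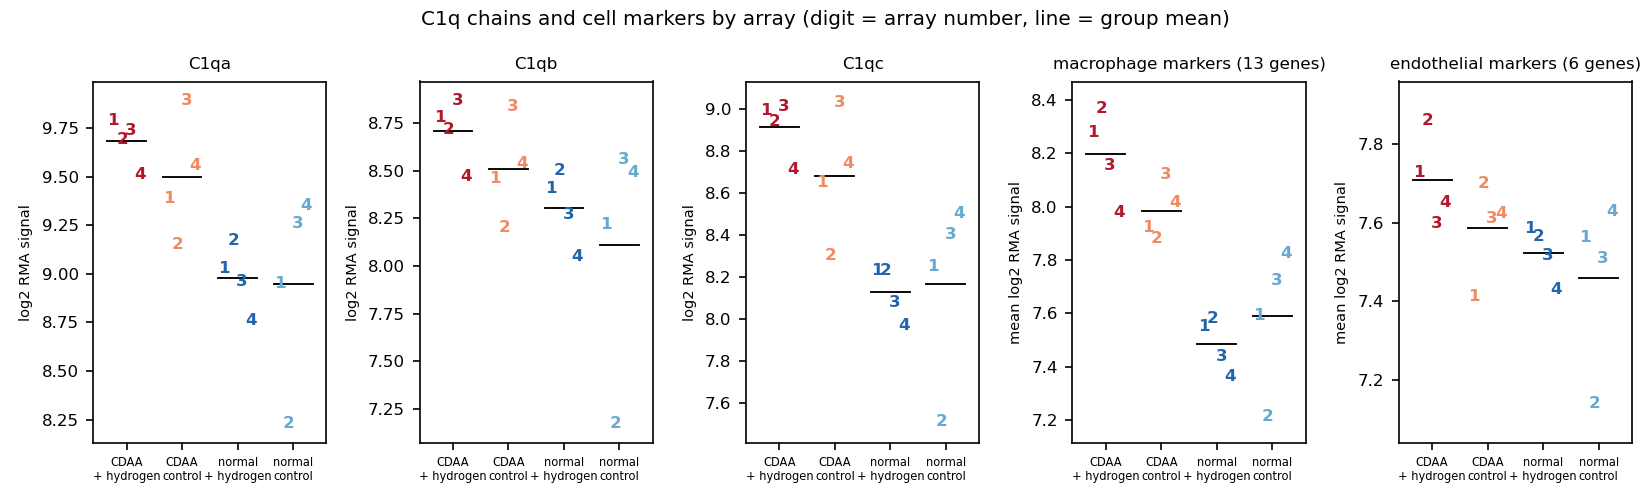
Log2 signal of C1qa, C1qb and C1qc and the mean log2 signal of 13 macrophage and 6 endothelial markers in each of the 16 livers, with the array number as the symbol and a line at the group mean. CDAA groups stand left of their normal-diet groups, and array 2 of the control normal-diet rats is lowest in all 5 panels.

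C1r and C1s, the proteases carried by C1q, and C2, the substrate of C1s, are given in full although they were chosen after their values were seen. C1r read 11.05, 10.89, 10.76 and 10.72 log2 in hydrogen-treated CDAA livers and 10.70, 10.67, 10.53 and 10.65 in control CDAA livers. It read 10.91, 10.91, 10.91 and 10.73 in hydrogen-treated normal-diet livers and 10.97, 11.00, 11.06 and 10.84 in control normal-diet livers. The control CDAA livers were thus below all other livers. C1r differed by -0.01 log2 in hydrogen-treated rats (adjusted p = 0.924) and fell in control rats by 0.33 ± 0.0756 (1.26-fold lower, adjusted p = 0.00295).

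C1s read 11.69, 11.76, 11.30 and 11.37 log2 in hydrogen-treated CDAA livers and 11.34, 11.32, 11.22 and 11.20 in control CDAA livers. Its normal-diet values were 11.60, 11.60, 11.61 and 11.43 with hydrogen and 11.74, 11.70, 11.75 and 11.52 without. The control CDAA livers lay below both normal-diet groups, and the hydrogen-treated CDAA livers spread over both levels, 2 high and 2 low. C1s differed by -0.03 log2 in hydrogen-treated rats (adjusted p = 0.812) and fell in control rats by 0.41 ± 0.0932 (1.33-fold lower, adjusted p = 0.00293). C2 read 9.98, 9.68, 9.70 and 9.68 in hydrogen-treated and 9.64, 9.51, 9.55 and 9.53 in control CDAA livers. Its normal-diet values were 9.68, 9.60, 9.66 and 9.66 with hydrogen and 9.65, 9.57, 9.65 and 9.61 without. C2 passed in neither, at 0.11 log2 in hydrogen-treated rats and -0.06 in control rats. Of its dimmer probe sets, that with a mean of 8.91 rose by 0.19 in hydrogen-treated rats (adjusted p = 0.0287) and differed by -0.02 in control rats (adjusted p = 0.885). That with a mean of 8.17 passed in neither.

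In the lectin arm, the recognition molecules and Masp2 fell and Masp1 rose. Mbl1, a mannose-binding lectin, read 9.52, 9.29, 9.08 and 9.22 log2 in hydrogen-treated CDAA livers and 9.19, 9.31, 9.18 and 9.16 in control CDAA livers. It read 9.91, 9.87, 9.80 and 9.89 in hydrogen-treated normal-diet livers and 9.80, 9.72, 9.88 and 9.71 in control normal-diet livers. No CDAA liver reached a normal-diet one. The difference was -0.59 log2 in hydrogen-treated rats (1.51-fold lower, adjusted p = 2.26e-05) and -0.57 ± 0.0771 in control rats (1.48-fold lower, adjusted p = 5.32e-05). Mbl2, the other mannose-binding lectin, fell by 0.30 log2 in hydrogen-treated rats (adjusted p = 0.00124) and 0.27 in control rats (adjusted p = 0.0036), and its other probe set fell by 0.93 in hydrogen-treated and 0.84 in control rats. Masp2, the protease that cleaves C4 and C2, fell by 0.52 log2 in hydrogen-treated rats (adjusted p = 1.1e-04) and 0.39 in control rats (adjusted p = 0.00154). The other Masp2 probe sets did not share this fall. That with a mean of 9.46 log2 passed in neither comparison, at -0.15 in hydrogen-treated and -0.18 in control rats. That with a mean of 6.37 rose by 0.30 in hydrogen-treated rats (adjusted p = 0.028) and differed by -0.11 in control rats (adjusted p = 0.459). The Masp2 call in hydrogen-treated rats was lost with the mean over its 3 probe sets, at -0.12 log2 (adjusted p = 0.176).

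Masp1, whose protease activates Masp2 and whose gene also encodes other products by alternative splicing, read 9.71, 9.71, 9.61 and 9.56 log2 in hydrogen-treated CDAA livers and 9.47, 9.46, 9.66 and 9.70 in control CDAA livers. It read 9.01, 8.90, 8.82 and 8.80 in hydrogen-treated normal-diet livers and 8.66, 8.91, 9.03 and 9.13 in control normal-diet livers. Every CDAA liver was above every normal-diet liver. Masp1 rose by 0.77 log2 in hydrogen-treated rats (1.70-fold, adjusted p = 9.47e-06) and by 0.64 ± 0.0908 in control rats (1.56-fold, adjusted p = 7.33e-05). Its probe sets disagreed, but the 2 dimmer ones lay near the array medians of 4.33 to 4.38 log2. That with a mean of 4.46 log2 passed in neither comparison. That with a mean of 4.09 fell by 0.32 in hydrogen-treated rats (adjusted p = 0.0053) and 0.28 in control rats (adjusted p = 0.013). With the mean over the 3 probe sets Masp1 differed by 0.12 log2 in hydrogen-treated rats and 0.15 in control rats and missed the test (adjusted p = 0.111 and 0.0571).

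Cfb, the protease precursor of the alternative arm, read 11.99, 11.93, 11.85 and 11.85 log2 in hydrogen-treated CDAA livers, against 11.69, 11.75, 11.66 and 11.74 in hydrogen-treated normal-diet livers. It read 11.82, 11.78, 11.79 and 11.76 in control CDAA livers, against 11.74, 11.78, 11.68 and 11.73 in control normal-diet livers. CDAA and normal-diet livers were apart under hydrogen and overlapped in control rats. Cfb rose by 0.20 ± 0.0487 log2 in hydrogen-treated rats (1.14-fold, adjusted p = 0.00428) and differed by 0.06 in control rats (adjusted p = 0.408). With each array centred on its median the difference under hydrogen was 0.10 (adjusted p = 0.0944). Cfd, the protease that cleaves factor B, differed by 0.27 in hydrogen-treated rats and -0.03 in control rats, with adjusted p = 0.356 and 0.944.

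C3, on which all arms converge, was among the brightest signals and lay between 12.94 and 13.05 log2 on all 16 arrays. Its diet differences were 0.04 in hydrogen-treated rats and 0.05 in control rats (adjusted p = 0.468 and 0.45). C5, which opens the terminal sequence, differed by 0.19 in hydrogen-treated rats (adjusted p = 0.0708) and -0.02 in control rats (adjusted p = 0.905). Below them all measured C8 chains fell, and C9, which forms the ring of the pore, differed by -0.14 in hydrogen-treated and -0.16 in control rats without passing the test (adjusted p = 0.0899 and 0.0705). The 5 genes with a mean over 12 log2, C3, C9, F2, Serpinc1 and Plg, had diet differences of -0.26 to 0.05, and how far the array can show differences near the upper end of its scale was not tested.

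C8a encodes the chain of C8 that enters the membrane. It read 10.61, 10.56, 10.43 and 10.49 log2 in hydrogen-treated CDAA livers and 10.56, 10.38, 10.47 and 10.62 in control CDAA livers, against 10.83, 10.78, 10.79 and 10.83 in hydrogen-treated and 10.88, 10.93, 10.90 and 10.84 in control normal-diet livers. The groups did not overlap on either contrast. C8a fell by 0.29 log2 in hydrogen-treated rats (1.22-fold lower, adjusted p = 9.68e-04) and by 0.38 ± 0.058 in control rats (1.30-fold lower, adjusted p = 1.35e-04).

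C8g, the lipocalin chain bound to C8a, read 11.38, 11.18, 11.14 and 11.49 log2 in hydrogen-treated CDAA livers and 11.29, 11.40, 11.30 and 11.41 in control CDAA livers, against 11.74, 11.75, 11.71 and 11.76 in hydrogen-treated and 11.74, 11.78, 11.80 and 11.60 in control normal-diet livers. Again no CDAA liver reached a normal-diet one. C8g fell by 0.44 log2 (adjusted p = 1.71e-04) in hydrogen-treated rats and 0.38 (adjusted p = 8.15e-04) in control rats, and C8b, the remaining chain, by 0.30 in hydrogen-treated (adjusted p = 0.00114) and 0.36 in control rats (adjusted p = 3.47e-04).

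Among complement regulators, Serping1, the C1 inhibitor that also blocks factor XII and plasma kallikrein, fell in both comparisons. It read 11.72, 11.69, 11.28 and 11.43 log2 in hydrogen-treated CDAA livers and 11.50, 11.40, 11.43 and 11.44 in control CDAA livers, against 11.86, 11.77, 11.86 and 11.81 in hydrogen-treated and 11.81, 11.81, 11.84 and 11.71 in control normal-diet livers. The CDAA values stayed below the normal-diet values, by little in hydrogen-treated rats. The fall was 0.30 log2 in hydrogen-treated rats (adjusted p = 0.0072) and 0.35 in control rats (adjusted p = 0.00288). C4bpb, the chain of C4b-binding protein that holds protein S, read 11.03, 11.20, 10.87 and 11.19 in hydrogen-treated CDAA livers, 10.84, 10.95, 10.91 and 10.88 in control CDAA livers, 11.14, 11.21, 11.20 and 11.15 in hydrogen-treated normal-diet livers and 11.15, 11.05, 11.24 and 11.11 in control normal-diet livers. Its groups overlapped in hydrogen-treated rats (-0.10, adjusted p = 0.236) and were apart in control rats, where it fell by 0.24 (adjusted p = 0.0118). C4bpa, its partner chain, and Cfi, the protease that inactivates C3b and C4b, passed in neither, at 0.02 and 0.13 log2 in hydrogen-treated rats and -0.18 and -0.02 in control rats.

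Of the procoagulant factors, F5 and F10 fell and F2 and F9 did not pass the test. F5, the cofactor of activated factor X, read 9.48, 9.17, 9.24 and 9.19 log2 in hydrogen-treated CDAA livers and 9.21, 9.33, 9.20 and 9.07 in control CDAA livers, against 9.48, 9.56, 9.55 and 9.44 in hydrogen-treated and 9.59, 9.68, 9.62 and 9.49 in control normal-diet livers. One hydrogen-treated CDAA liver reached the normal-diet range. F5 fell by 0.24 log2 in hydrogen-treated rats (adjusted p = 0.0158) and by 0.39 in control rats (adjusted p = 6.91e-04).

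F10, the factor that cleaves prothrombin, read 11.23, 11.23, 10.83 and 11.13 log2 in hydrogen-treated CDAA livers and 11.00, 11.29, 11.04 and 11.17 in control CDAA livers, against 11.39, 11.38, 11.39 and 11.40 in hydrogen-treated and 11.39, 11.41, 11.41 and 11.29 in control normal-diet livers. The control groups met at 11.29. F10 fell by 0.29 log2 in hydrogen-treated rats (adjusted p = 0.0109) and by 0.25 in control rats (adjusted p = 0.0271). The call in control rats was lost without array 1, 2 or 3 of the control normal-diet rats or array 1 or 3 of the control CDAA rats, at -0.25 to -0.21 log2 (adjusted p up to 0.085). F2, prothrombin, differed by -0.06 in hydrogen-treated and -0.10 in control rats, and F9, the factor missing in haemophilia B, by -0.03 in hydrogen-treated and -0.10 in control rats. Of the 5 measured genes whose proteins need vitamin K (F2, F9, F10, Proc and Pros1), F10 and Pros1 fell in each comparison.

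F12, the factor that starts the contact system with prekallikrein, read 10.79, 10.89, 10.56 and 10.80 log2 in hydrogen-treated CDAA livers and 10.52, 10.80, 10.49 and 10.75 in control CDAA livers, against 10.95, 11.01, 10.97 and 10.92 in hydrogen-treated and 11.00, 11.04, 11.03 and 10.89 in control normal-diet livers. The groups did not overlap, with small gaps. F12 fell by 0.20 log2 in hydrogen-treated rats (adjusted p = 0.0482) and by 0.35 in control rats (adjusted p = 0.00278). The call in hydrogen-treated rats held in 6 of the 16 fits without 1 array. It was lost without array 1, 3 or 4 of the hydrogen-treated CDAA rats, any array of the hydrogen-treated normal-diet rats or array 1, 2 or 3 of the control normal-diet rats, at -0.22 to -0.14 log2 (adjusted p up to 0.168).

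Of the 4 measured anticoagulants, 3 fell in both comparisons and Proc, protein C, passed in neither (-0.05 and -0.13 log2 in hydrogen-treated and control rats). Its dimmer probe set fell by 0.47 in hydrogen-treated rats (adjusted p = 0.0168) and differed by -0.28 in control rats (adjusted p = 0.151). With the mean over its probe sets Proc passed in hydrogen-treated rats (-0.26, adjusted p = 0.0241). With each array centred on its median it passed in both, at -0.15 in hydrogen-treated and -0.19 in control rats (adjusted p = 0.0227 and 0.00875). Pros1, protein S, the cofactor of protein C, read 9.70, 9.46, 9.45 and 9.67 log2 in hydrogen-treated CDAA livers and 9.23, 9.47, 9.46 and 9.61 in control CDAA livers, against 10.03, 10.05, 10.09 and 10.04 in hydrogen-treated and 9.96, 10.06, 10.12 and 9.92 in control normal-diet livers. A gap of more than 0.2 log2 separated the diets. Pros1 fell by 0.48 log2 in hydrogen-treated rats (1.40-fold lower, adjusted p = 1.78e-04) and by 0.57 ± 0.0799 in control rats (1.49-fold lower, adjusted p = 6.43e-05).

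Serpind1, heparin cofactor, a thrombin inhibitor, read 11.63, 11.66, 11.54 and 11.64 log2 in hydrogen-treated CDAA livers and 11.62, 11.66, 11.64 and 11.63 in control CDAA livers, against 11.74, 11.83, 11.84 and 11.82 in hydrogen-treated and 11.82, 11.82, 11.89 and 11.79 in control normal-diet livers. The shift was small and the groups were tight and apart. It fell by 0.19 log2 in each comparison (adjusted p = 0.00402 in hydrogen-treated and 0.00451 in control rats). Serpinc1, antithrombin, fell by 0.16 in hydrogen-treated rats (adjusted p = 0.0126) and 0.19 in control rats (adjusted p = 0.0058). The Serpinc1 calls were lost after a further quantile normalization, at -0.05 in hydrogen-treated and -0.09 log2 in control rats (adjusted p = 0.444 and 0.17).

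All 3 fibrinolysis genes fell in both comparisons, the precursor of plasmin together with inhibitors of clot lysis. Serpinf2, the plasmin inhibitor antiplasmin, read 10.36, 10.47, 10.14 and 10.47 log2 in hydrogen-treated CDAA livers and 10.38, 10.36, 10.30 and 10.33 in control CDAA livers, against 10.88, 10.78, 10.85 and 10.86 in hydrogen-treated and 10.87, 10.90, 10.79 and 10.75 in control normal-diet livers. The diets were apart by more than 0.2 log2. Serpinf2 differed by -0.48 log2 in hydrogen-treated rats (1.40-fold lower, adjusted p = 4.09e-05) and -0.49 ± 0.0675 in control rats (1.40-fold lower, adjusted p = 6.31e-05).

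Plg, plasminogen, read 12.27, 12.11, 11.99 and 12.20 log2 in hydrogen-treated CDAA livers and 12.19, 12.09, 12.14 and 12.13 in control CDAA livers, against 12.35, 12.42, 12.45 and 12.37 in hydrogen-treated and 12.41, 12.42, 12.44 and 12.33 in control normal-diet livers. These groups too were apart. Plg differed by -0.26 log2 in each comparison (adjusted p = 0.00257 in hydrogen-treated and 0.00263 in control rats), and Cpb2, the carboxypeptidase that slows clot lysis, by -0.18 in hydrogen-treated and -0.19 in control rats (adjusted p = 0.0155 and 0.014). The Plg call in control rats was lost after a further quantile normalization (-0.17, adjusted p = 0.0519), and the Cpb2 call in hydrogen-treated rats without array 3 of the hydrogen-treated CDAA rats (-0.14, adjusted p = 0.0571) and with only the 2 groups compared (-0.18, adjusted p = 0.0544).

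**Figure D3:**
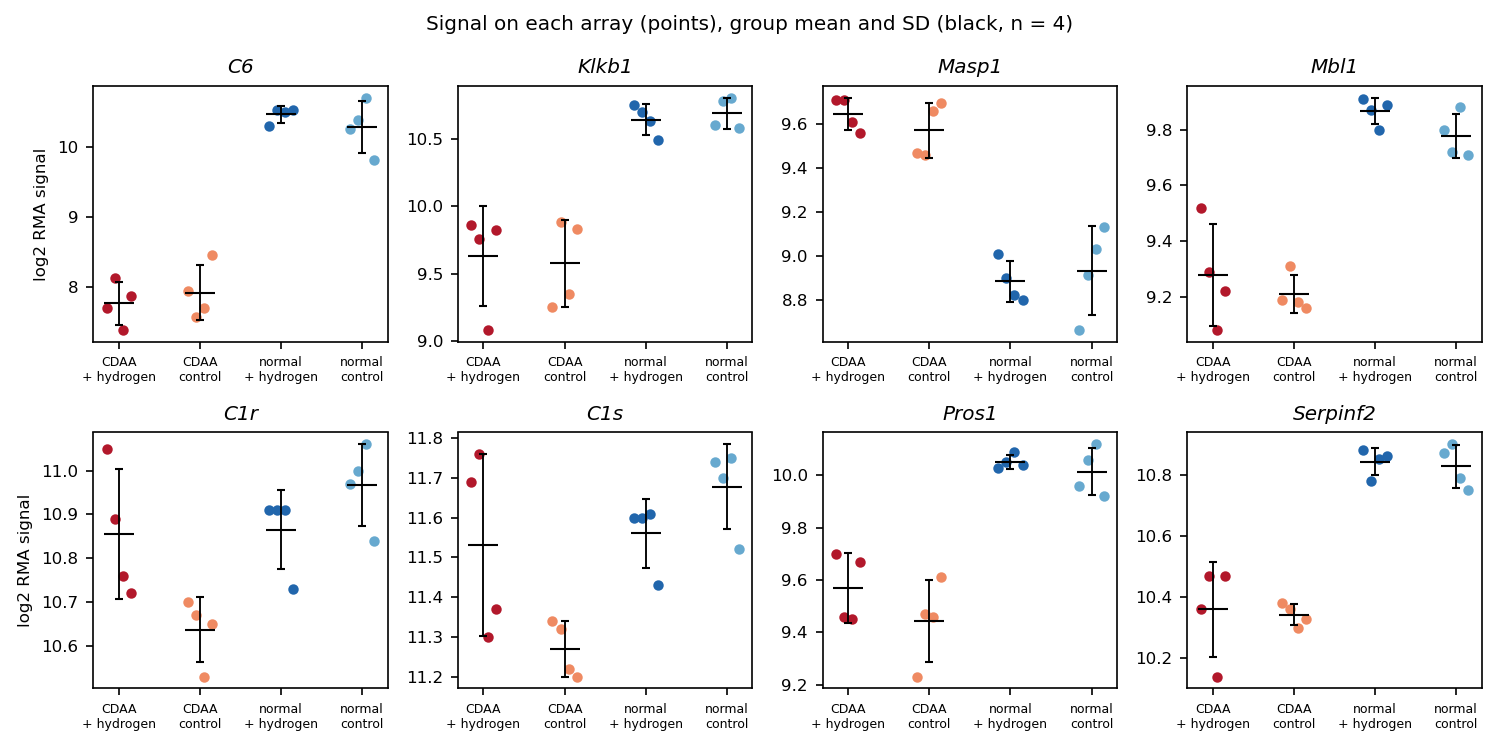
Log2 signal of C6, Klkb1, Masp1, Mbl1, C1r, C1s, Pros1 and Serpinf2 in each liver, with the group mean and SD (n = 4), the CDAA groups left of the normal-diet groups. Masp1 is higher on every CDAA array; C6, Klkb1, Mbl1, Pros1 and Serpinf2 are lower on every CDAA array, and C1r is lowest in control CDAA livers.

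Other genes of the cascades, which were not members, are given by list, to be read against the 32.1% of all genes that rose and 17.3% that fell in hydrogen-treated rats and the 27.3% and 13.3% in control rats. Of 6 measured further soluble complement genes, 4 rose and 2 fell in hydrogen-treated rats, against 2 and 2 in control rats. Clu, clusterin, an inhibitor of the attack complex, rose by 0.76 log2 in hydrogen-treated and 0.56 in control rats, and Colec11, a collectin of the lectin arm, by 0.55 in hydrogen-treated and 0.35 in control rats. Fcna, ficolin A, a lectin-arm recognition molecule made by macrophages in mice, fell by 0.76 in hydrogen-treated and 0.95 in control rats (adjusted p = 0.00473 and 0.00121), and Vtn, vitronectin, by 0.25 in hydrogen-treated and 0.31 in control rats. Of 7 receptors and membrane regulators, 5 rose and 0 fell in hydrogen-treated rats and 4 rose and 0 fell in control rats, among them C5ar1, the receptor for C5a, by 0.85 log2 in hydrogen-treated and 0.80 in control rats.

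Among 12 other coagulation genes, 4 rose and 2 fell in hydrogen-treated rats and 4 rose and 1 fell in control rats. Vwf, the von Willebrand factor of endothelium and platelets, rose by 1.37 log2 in hydrogen-treated and 1.12 in control rats (adjusted p = 2.75e-06 in control rats), and F2r, a thrombin receptor, by 1.18 in hydrogen-treated and 0.83 in control rats. Fgb, the fibrinogen beta chain made by hepatocytes, fell by 0.19 in hydrogen-treated and 0.17 in control rats (adjusted p = 0.00327 and 0.0109). Of 9 other anticoagulant genes 6 rose in each comparison, with 1 falling in control rats. A2m, alpha-macroglobulin, a broad protease inhibitor, rose 7.06-fold in hydrogen-treated and 4.48-fold in control rats. Tfpi, the tissue factor pathway inhibitor, rose by 1.12 log2 in hydrogen-treated and 0.92 in control rats, and Thbd, thrombomodulin, by 0.80 in hydrogen-treated and 0.50 in control rats.

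Of 8 other fibrinolysis genes, 6 rose and 0 fell in hydrogen-treated rats and 5 rose and 1 fell in control rats. S100a10 and Anxa2, which form a plasminogen-binding complex on cell surfaces, rose by 2.82 and 1.69 log2 in hydrogen-treated rats and by 2.42 and 1.47 in control rats. The plasminogen activators Plau and Plat rose by 1.36 and 0.88 in hydrogen-treated rats and by 0.65 and 0.86 in control rats. These further genes are made by several cell types.

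The counts of cell markers are to be read against the shares of all genes tested. These were 32.1% rising and 17.3% falling in hydrogen-treated rats and 27.3% and 13.3% in control rats. Of 9 hepatocyte markers measured, 1 rose and 3 fell in hydrogen-treated rats (median -0.11) and 1 rose and 1 fell in control rats (median -0.03). Their mean level on an array ran from 12.31 to 12.39 log2 in hydrogen-treated CDAA livers, 12.43 to 12.68 in control CDAA livers, 12.44 to 12.59 in hydrogen-treated normal-diet livers and 12.44 to 12.59 in control normal-diet livers. Between hydrogen-treated and control CDAA livers the hepatocyte markers had a median difference of -0.05 log2 and a lowest of -1.38, and 0 of the 9 were called. Of 8 stellate cell markers 7 rose in hydrogen-treated rats and 5 in control rats, and of 5 bile duct markers 3 rose in each. Of 6 endothelial markers 3 rose in hydrogen-treated rats and 1 in control rats, and of 6 lymphocyte markers 1 rose in each. Of 2 red cell markers, 1 fell in hydrogen-treated rats and 2 in control rats. Signals of these 2 kinds of marker were low, against a filter line of 3.68 log2. Group means ran from 3.89 to 4.55 log2 for red cell markers and from 4.06 to 4.12 for lymphocyte markers. Of 3 platelet markers 1 rose in hydrogen-treated rats and 1 fell in control rats. The neutrophil marker S100a9 differed by 0.09 log2 in hydrogen-treated rats and fell by 0.54 in control rats. Its interaction of hydrogen with diet was 0.63 log2 and did not pass the test. The part of cell composition in the members' differences was not tested.

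Of 15 liver transcription factors and receptors measured, 8 fell and 1 rose in hydrogen-treated rats and 6 fell and 1 rose in control rats. Among all genes tested, 17.3% fell and 32.1% rose in hydrogen-treated rats, and 13.3% fell and 27.3% rose in control rats. Ghr, the growth hormone receptor, fell by 1.28 log2 in hydrogen-treated and 1.12 in control rats, and Nr5a2, an orphan nuclear receptor of hepatocytes, by 0.74 in hydrogen-treated and 0.97 in control rats. Cebpd, an acute-phase C/EBP factor, rose by 1.19 in hydrogen-treated and 0.96 in control rats. Il6r, the receptor for interleukin-6, the cytokine that drives acute-phase plasma proteins, differed by 0.03 in hydrogen-treated rats (adjusted p = 0.917) and fell by 0.84 in control rats (adjusted p = 0.00281). Of the 15 genes, 0 passed for the interaction of hydrogen with diet. The Il6r fall is therefore not shown to differ between hydrogen-treated and control rats.

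No member passed the test for hydrogen on either diet. In limma, 0 members passed for hydrogen on the CDAA diet, against 0.376% of all genes, 0 on the normal diet, against 0.00875%, and 0 for the interaction of hydrogen with diet, against 0%. The smallest adjusted p among the members were 0.228, 0.562 and 0.404. At an unadjusted p under 0.05 there were 6 members on the CDAA diet (C1r, C1s, C2, Cfb, C5 and C4bpb), against 12.6% of all genes. There was 1 on the normal diet (Masp2), against 7.11%, and there were 2 for the interaction (C1r and C1s), against 9.26%. The differences ran from -0.15 (C6) to 0.26 log2 (Cfd) on the CDAA diet and from -0.12 (C1s) to 0.22 (Masp2) on the normal diet. On the CDAA diet 30 of the 36 were above 0, against 53.1% of all genes, and on the normal diet 16 of the 36, against 47.3%.

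None of the 6 members with an unadjusted p under 0.05 on the CDAA diet passed after adjustment. C1r was 0.22 ± 0.0756 log2 higher with hydrogen (95% interval 0.06 to 0.38, adjusted p = 0.268), C1s 0.26 ± 0.0932 (0.06 to 0.46, adjusted p = 0.277) and C2 0.20 ± 0.0643 (0.07 to 0.34, adjusted p = 0.228). C4bpb was 0.18 ± 0.0688 higher (0.03 to 0.32, adjusted p = 0.323), C5 0.17 ± 0.0812 (adjusted p = 0.422) and Cfb 0.12 ± 0.0487 (adjusted p = 0.357). C2 read 9.98, 9.68, 9.70 and 9.68 in hydrogen-treated CDAA livers, against 9.64, 9.51, 9.55 and 9.53 in control CDAA livers. The groups did not overlap for C1r, C2 and Cfb, 3 of the 36 members against 3.76% of all genes, and for Masp2 and C8a on the normal diet, 2 of 36 against 5.69%. The interaction was 0.32 ± 0.107 log2 for C1r (0.09 to 0.55, adjusted p = 0.404) and 0.38 ± 0.132 for C1s (0.10 to 0.66, adjusted p = 0.438). The diet fall of C1r and C1s that passed in control rats and not in hydrogen-treated rats is therefore not shown to differ between them.

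**Figure D4:**
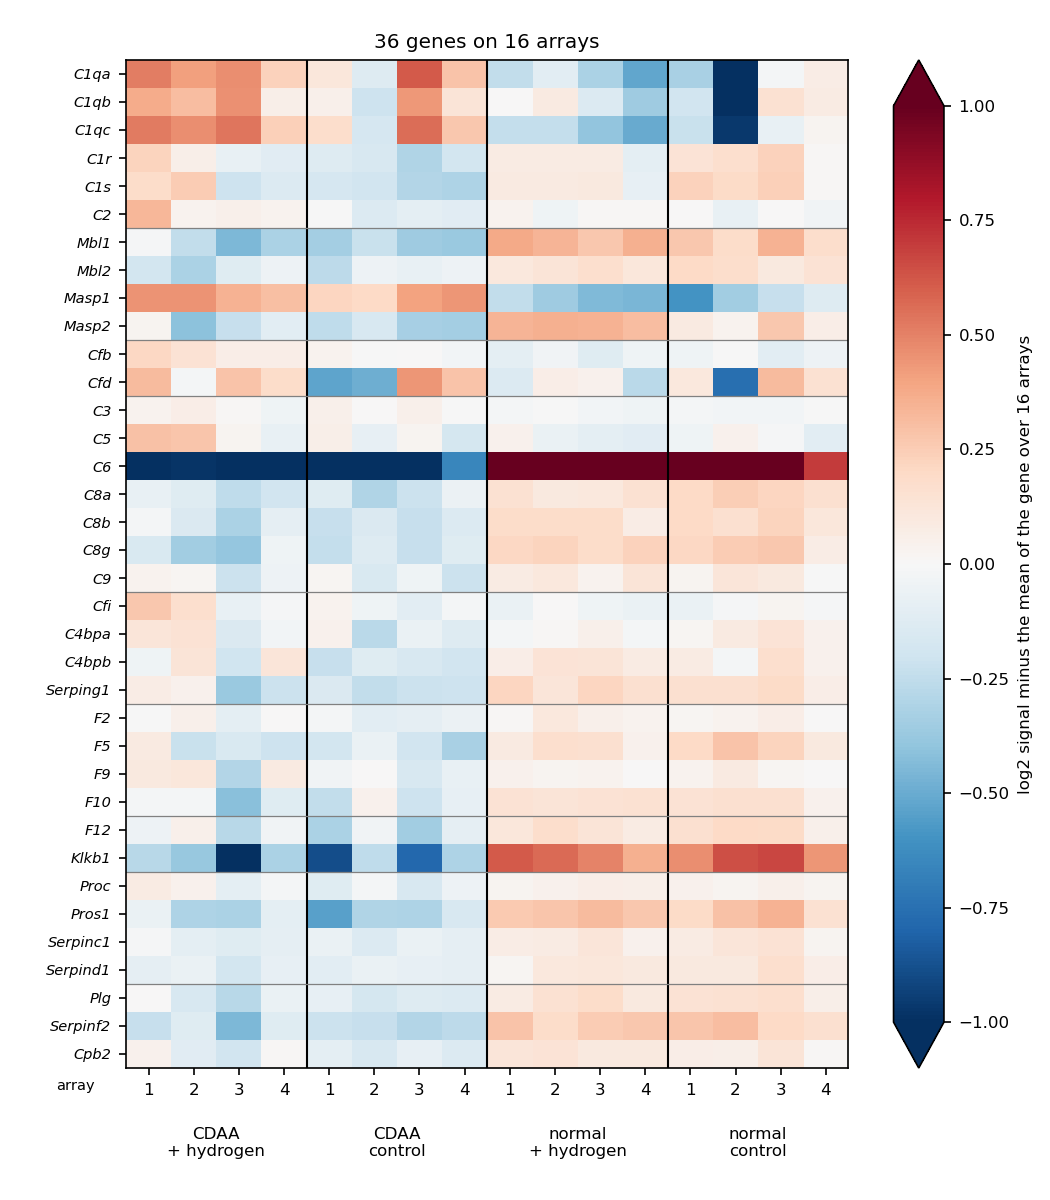
Signal of the 36 genes (rows, grouped by role) on the 16 arrays (columns, in the order hydrogen-treated CDAA, control CDAA, hydrogen-treated normal diet, control normal diet), as log2 minus the gene's mean over all arrays, with the colour capped at 1 either way. C6 and Klkb1 show the strongest contrast between diets and run low to high from the CDAA to the normal-diet columns, Masp1 runs the other way, and the C1q chains are lowest on array 2 of the control normal-diet livers.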

How the data were processed

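Liver RNA in RNAlater was extracted with RNeasy columns and labelled with the 3'IVT Express kit, per the labels' protocols. The authors deposited log2 values, 1 per probe set and array, and the submitters' processing notes list RMA and Affymetrix Expression Console as tools, without a version. RMA is meant to make the arrays' distributions alike, so a shift of all transcripts in 1 group may not show in full. The deposited distributions were not fully alike. A further quantile normalization moved the median diet difference over all genes from 0.0525 to 0.0014 log2 in hydrogen-treated rats. In control rats this median moved from 0.04 to 0.014. Neither the strip position nor the day of scanning could be taken from the labels, so neither was checked as a batch.

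The members and gene lists were chosen with earlier results of these data known. Of 31139 probe sets, 97 controls were left out, and 22634 exceeding 3.68 log2 (the 30th percentile) on at least 4 arrays were tested; 8408 were dropped. Platform annotation gave 1 symbol for 19068 probe sets, several for 573 and none for 11407, and 18989 matched a current rat gene. In limma 3.58.1 (R 4.3.3), lmFit estimated 1 mean for each group from all 16 arrays, with eBayes and Benjamini-Hochberg adjustment over the probe sets tested, and checked on simulated data. An error after ± is limma's standard error, or an SD where named so. No label says that replicate numbers mark shared batches, and they were not used as pairs in the fit reported. Values on every array are given for the C1q chains and for the 2 genes of each role with the largest called difference in control rats; C1r, C1s, C2 and Cfb were added after their values were seen. Alternatives were a replicate block, other scalings, no filter, the mean over a gene's probe sets, only the groups compared and leaving out each array. Figures were drawn with matplotlib.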

Additional observations from a re-analysis of the deposited data

Results flagged for a closer look

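With 36 genes in 4 groups, 144 sets of 4 arrays were examined for an array lying far from the other 3 of its group, and 9 held one, where chance alone marks about 1 in 20. Among hydrogen-treated CDAA livers these were C2 on array 1 (9.98 log2, next value 9.70), F9 on array 3 (11.47, next 11.85) and Klkb1 on array 3 (9.08, next 9.76). In control CDAA livers Mbl2 was low on array 1 (10.94, next 11.13). In hydrogen-treated normal-diet livers, array 4 was low for C1r (10.73, the other 3 at 10.91), C1s (11.43, next 11.60) and C8b (11.30, the other 3 at 11.41), and array 1 was low for C6 (10.29, next 10.50). In control normal-diet livers F10 was low on array 4 (11.29, next 11.39).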

How the results depend on the processing

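The 18 falling genes of hydrogen-treated rats numbered 16 to 18 in the fits that left out 1 array and 16 to 22 under the other alternatives, and the 21 of control rats 20 to 23 and 20 to 25. The 3 rising genes of control rats numbered 1 to 3 when 1 array was left out. They numbered 1 with each array centred on its median, 1 with only the 2 groups compared, and 1 with arrays 2 and 4 of the control normal-diet rats both left out, an alternative chosen after seeing the data. The genes lost in these fits were C1qa and C1qc, whereas the mean over a gene's probe sets lost Masp1 and left 2. The 4 rising genes of hydrogen-treated rats numbered 3 to 6 under the alternatives. Hydrogen on either diet and the interaction gave 0 members throughout. Of 900 values of single genes per diet comparison over the alternatives, 867 stayed on the same side of the threshold in hydrogen-treated rats and 862 in control rats; 15 and 12 values changed sign there, all of genes not called (among them C1r and C1s in hydrogen-treated and Cfd in control rats). Deviations of arrays with the same replicate number correlated at -0.13 to 0.33, over 0.1 in 9 of 24 pairs (median 0.0784), against 7 of 72 pairs with different numbers (median -0.0098), and 8 of 16 arrays correlated best with their own number. This hints at some sharing by number, but it did not hold for every pair and no label states it, so the numbers were not used as pairs. A replicate block gave 18 falling and 5 rising genes in hydrogen-treated rats, with C5 added, 21 and 3 in control rats, and 0 for hydrogen. Depth here is array signal: all 36 genes were above the filter line, and 4 arrays a group limit small differences.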

Other observations

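Among hydrogen-treated CDAA livers, array 3 was the lowest of its group for 17 of the 21 genes that fell with the CDAA diet in control rats, and array 1 was the highest for 12. In control normal-diet livers, array 4 was the lowest for 18 of these 21 and array 3 the highest for 15. These counts describe single livers, and the genes of a liver are not independent.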
